A study of Bos taurus with 4 samples.

Results

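All-trans retinoic acid (ATRA) and 9-cis retinoic acid (9cRA) were compared in bovine intramuscular preadipocytes, the fat cell precursors of the depot within skeletal muscle. The members are the arrays that the labels assign to either retinoid at day 6, 3 for ATRA and 3 for 9cRA, which is 6 of the 12 arrays of the series. The other arrays are 3 of day 6 cells without retinoid, used here as the control level, and 3 of day 0 cells, which enter only the estimate of spread. All day 6 cells had been kept for 6 days in adipogenic medium with insulin (50 ng/mL), the glucocorticoid dexamethasone (0.25 µM), octanoate (5 mM), acetic acid (10 mM) and fetal bovine serum (10%), renewed every 2 days. The ATRA and 9cRA cells additionally received their retinoid at 1 µM, so dose and time are matched and 1 pair of compounds was compared. The labels do not say that the arrays of a group came from separate cultures, so p-values measure the spread between arrays only, which may be technical.

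The compounds are stereoisomers that differ in the geometry of the side chain. ATRA binds the retinoic acid receptors (RARs), which pair with retinoid X receptors (RXRs) on DNA. 9cRA binds both RARs and RXRs, and RXRs are also the partners of the liver X receptors (LXRs), the peroxisome proliferator-activated receptors (PPARs) and the vitamin D and thyroid hormone receptors. The comparison therefore asks where a ligand that can also reach RXR leaves the cells with a different transcript level. Retinoic acid is known to hold back fat cell formation in preadipocytes.

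Levels are given as log2 signal relative to the 75th percentile of the same array, and differences as ATRA minus 9cRA on that log2 scale, so that a negative difference means a higher level with 9cRA. Of 17623 genes tested, 12129 had a symbol, and 16503 (93.6%) were well above background on all 6 retinoid arrays. Between 68.7% and 74.0% of probe spots were well above background on these arrays, and the median standard deviation of a gene between arrays was 0.079 with ATRA and 0.089 with 9cRA. The retinoid arrays lay on 2 of the 3 slides: ATRA arrays 1 and 2 were on slide 2 with control arrays 2 and 3, and ATRA array 3 was on slide 3 with all 9cRA arrays. Values with the slide as a block therefore rest on ATRA array 3 against the 9cRA arrays.

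The labelled cell type was checked against markers. All 9 markers of preadipocytes and fibroblasts, among them PDGFRA, DLK1 and COL1A1, were well above background on all 6 arrays. Their summed linear signal was 549 to 610 times the 75th percentile with ATRA and 571 to 589 with 9cRA, so the ranges overlapped. Of 6 adipocyte markers, CIDEC, FABP4 and LPL were well above background on all 6 arrays and ADIPOQ on none, with sums of 2.76 to 2.88 for ATRA, 3.01 to 3.93 for 9cRA and 70.1 to 87.6 for the control. The ATRA and 9cRA sums did not overlap, and most of each sum came from FABP4. Of 7 smooth muscle and pericyte markers, 5 (ACTA2, CNN1, TAGLN, CSPG4 and MCAM) were well above background on all 6 arrays and MYH11 and RGS5 on none. Their sums were 18.6 to 19.8 with ATRA and 18.8 to 20.7 with 9cRA. Of 8 skeletal muscle markers, 6 (MYOD1, MYOG, DES, MYH3, ACTA1 and CKM) were well above background on all 6 arrays and MYF5 and PAX7 on none. Their sums, 20.1 to 20.4 with ATRA and 21.6 to 23.3 with 9cRA, did not overlap. Most of each sum came from DES, which is also on the list of smooth muscle contractile genes used below. Its log2 level was 4.04, 4.06 and 4.09 with ATRA and 4.18, 4.28 and 4.25 with 9cRA. Of 7 endothelial markers, 5 (KDR, TEK, VWF, CLDN5 and EMCN) were well above background on all 6 arrays and PECAM1 on none. Of 7 myeloid markers, 5 (CD68, CD14, CSF1R, PTPRC and TYROBP) were above on all 6 and AIF1 and CD163 on none. Both lists had overlapping sums, as had the markers of lymphocytes (CD3E and MS4A1 at background), chondrocytes and bone, epithelium (EPCAM at background) and nerve (SOX10 at background). Of these, 5 of 7 lymphocyte markers and all 4 chondrocyte and bone markers on the array were well above background on all 6 arrays. So were 2 of 5 epithelial and 3 of 5 nerve markers. Across the marker lists of 11 cell types, the only gene called between the isomers was EGR1, a member of the tendon list. In that list MKX and TNXB were also well above background on all 6 arrays, and SCX and TNMD were at background. Its sums were 9.24 to 10.0 with ATRA and 17.3 to 20.6 with 9cRA, which did not overlap, and 5.55 to 5.78 in the control. Most of each sum came from EGR1, so the separation restates the call of that gene. The part of any admixed cell type in the results below was not tested.

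The 2 isomers left the cells with closely similar profiles. A gene was called when its adjusted p was under 0.05 (limma, Benjamini-Hochberg, two-sided). Between ATRA and 9cRA, 21 genes were called, 0.119% of those tested: 11 were higher with ATRA (0.0624%) and 10 higher with 9cRA (0.0567%). Against the day 6 control, 8131 genes (46.1%) were called with ATRA, 23.7% higher and 22.4% lower, and 8202 (46.5%) with 9cRA, 24.8% higher and 21.8% lower. These comparisons share the control arrays, so they are set side by side only. The median absolute difference was 0.077 between the isomers, against 0.25 for either retinoid and the control. Only 4 genes were called with a difference of 2-fold or more, 1 higher with ATRA and 3 higher with 9cRA, and of the latter only EGR1 was well above background in both groups.

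**Figure D1:**
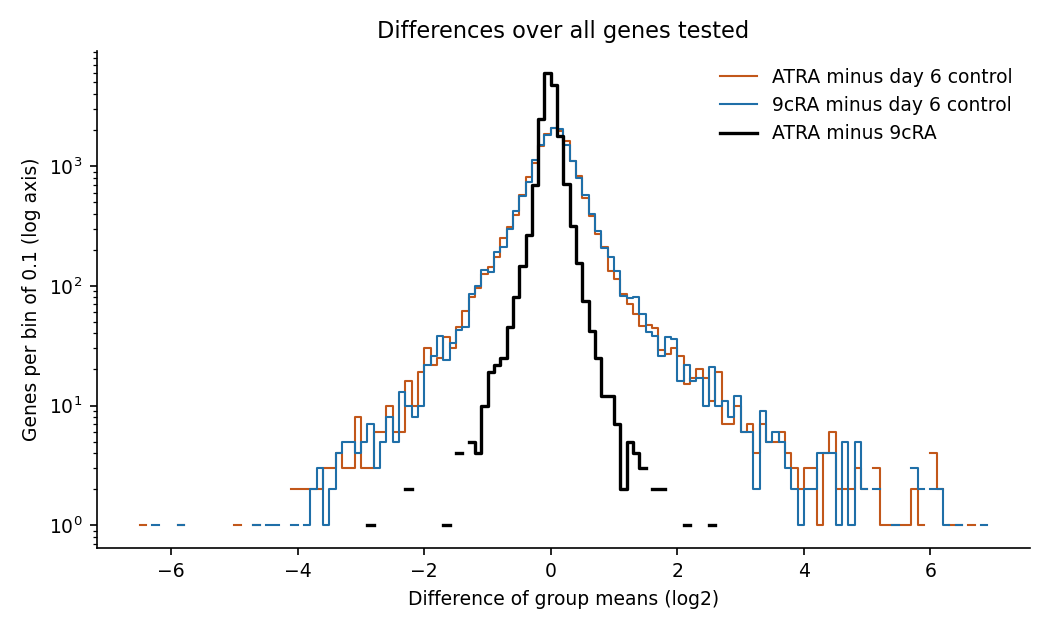
Number of genes (log axis) per bin of 0.1 against the log2 difference of group means, for ATRA minus control, 9cRA minus control and ATRA minus 9cRA over 17623 genes tested. The curve between the isomers is narrow, with a median absolute difference of 0.077, and both curves against the control spread wider, each with a median of 0.25.

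A p above the threshold does not show that the isomers act alike, so the interval of each difference was examined. The 95% interval lay within 2-fold in both directions (between -1 and 1) for 16677 genes, or 94.6% of those tested. It lay between -0.5 and 0.5, less than 1.41-fold either way, for 13892 genes (78.8%). Among genes well above background on all 6 retinoid arrays, these shares were 97.2% and 83.3%. In all, 1847 genes (10.5%) had an unadjusted p under 0.05, 5.61% with ATRA higher and 4.87% with 9cRA higher. The ATRA arrays lay wholly above the 9cRA arrays for 1448 genes (8.22%) and wholly below them for 1441 (8.18%).

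No call separated the isomers in the machinery that takes up, binds and degrades retinoic acid, and precision varied between its members. Of 24 tested genes of retinoic acid handling, none was called between the isomers by limma, and the median difference was 0.04 against -0.01 for all genes. An unadjusted p under 0.05 was found for 1 higher with ATRA (background 5.61%) and 2 higher with 9cRA (background 4.87%). Against the control, 8 of the 24 were higher and 9 lower with ATRA (backgrounds 23.7% and 22.4%), and 9 were higher and 9 lower with 9cRA (24.8% and 21.8%). CRABP1, a cytosolic retinoic acid binding protein, was at 0.48 to 1.10 on the control arrays, at 5.88, 6.03 and 6.01 with ATRA and at 5.84, 6.01 and 6.06 with 9cRA. The retinoid groups interleave, and their difference was 0.00 (95% interval -0.30 to 0.30). DHRS3, which reduces retinaldehyde to retinol, was at 5.28, 5.26 and 5.16 with ATRA and 5.04, 5.11 and 5.25 with 9cRA, against 0.77 to 1.08 in the control. Its difference of 0.10 had an interval of -0.12 to 0.32, well inside the rise of 4.32 and 4.22 against the control.

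STRA6, the cell surface transporter that imports retinol, was among the most strongly induced members and showed a wider interval. It was at -0.69, -0.62 and -0.79 with ATRA and -0.83, -1.22 and -1.16 with 9cRA, against -6.43 to -5.37 in the control. The groups did not overlap, but the difference of 0.37 ± 0.23 (SE) was not called (adjusted p = 0.65, interval -0.13 to 0.88). CYP26A1, which oxidises retinoic acid for disposal, was dim, at -3.51, -3.35 and -3.93 with ATRA and -3.65, -3.95 and -3.69 with 9cRA. These arrays overlapped and the interval was wide (-0.87 to 1.20), reaching past 2-fold with ATRA higher. CYP26B1 (0.41, -0.63 to 1.46) was above background on 2 of the 3 9cRA arrays and as imprecise, and CYP26C1, the third enzyme of the family, differed by -0.27 (-0.64 to 0.10). STRA6 and DHRS3 were chosen after their values were seen.

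Within this group the genes with the smallest p-values encode enzymes of retinoid metabolism. ALDH1A1, which makes retinoic acid from retinaldehyde, was at 2.81, 2.77 and 2.57 with ATRA and 3.05, 3.07 and 3.13 with 9cRA, both below the control at 3.98 to 4.13. Its arrays did not overlap between the isomers, and its difference of -0.37 ± 0.07 (SE) had an adjusted p of 0.11 (limma). All 3 of its probes measured on the 6 arrays gave differences between -0.39 and -0.37. The retinol dehydrogenase family members RDH11 (-0.26, adjusted p = 0.15 by limma) and RDH5 (0.29, adjusted p = 0.18) had opposite signs.

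The receptors themselves did not separate the isomers at this precision. RARA was dim and differed by -0.02 (-0.37 to 0.34). RARG was at 1.59, 1.54 and 1.65 with ATRA and 1.78, 1.80 and 1.70 with 9cRA, against -0.04 to 0.10 in the control. Its retinoid groups did not overlap, but the difference of -0.17 (interval -0.30 to -0.04) was not called after adjustment (adjusted p = 0.355, limma), and its probes ranged from -0.17 to 0.15. RXRB differed by 0.11 (-0.03 to 0.25). RXRA differed by -0.26 (-0.76 to 0.23), and by 0.03 with the slide as a block, since ATRA array 3 (-1.86) lay with the 9cRA arrays (-1.91 to -1.86) and ATRA arrays 1 and 2 did not (-2.27 and -2.32). Among all 17 tested receptors and coregulators the differences ran from -0.26 to 0.14, and 15 intervals lay between -0.5 and 0.5. None was called by limma, and 2 had an unadjusted p under 0.05, with 9cRA higher (background 4.87%).

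Retinoic acid target genes and the HOX genes, which pattern the body axis and respond to RAR, also had no called member by limma. Of 31 tested target genes, 19 were higher and 5 lower than the control with ATRA (backgrounds 23.7% and 22.4%), and 21 and 6 with 9cRA (24.8% and 21.8%). The median difference between isomers was 0.05 and 28 intervals lay within 2-fold. An unadjusted p under 0.05 was found for 3 higher with ATRA (background 5.61%) and 1 higher with 9cRA (background 4.87%). Of 31 tested HOX genes and cofactors, 23 were higher and 1 lower with either retinoid, beside the same backgrounds. Their medians against the control were 0.52 for ATRA and 0.50 for 9cRA. Unadjusted p-values under 0.05 were found for 3 HOX-list genes higher with ATRA (background 5.61%) and 2 higher with 9cRA (background 4.87%). HOXA5 was at -0.49, -0.54 and -0.54 with ATRA and -0.81, -0.89 and -0.78 with 9cRA, a difference of 0.31 (interval 0.12 to 0.50, adjusted p = 0.25 by limma) with no overlap. HOXB4 gave 0.20 (0.08 to 0.33) with an adjusted p of 0.25, and its 3 probes ranged from 0.02 to 0.30.

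The genes most changed by both retinoids were matched between them. A2M, a secreted protease inhibitor, was at 0.07 to 0.33 in the control, at 6.26, 6.26 and 6.38 with ATRA and at 6.46, 6.42 and 6.22 with 9cRA. The retinoid arrays overlapped, and the difference was -0.07 (-0.45 to 0.31). TF, the iron carrier transferrin, rose by 6.02 with ATRA and 6.06 with 9cRA and differed by -0.04 (-0.54 to 0.46). CLSTN3, a membrane protein of the cadherin superfamily, rose by 5.71 and 5.78 and differed by -0.06 (-0.46 to 0.33). CP rose further, by 9.71 with ATRA and 9.51 with 9cRA, but fell outside this ranking. It was well above background on only 2 control arrays. Its retinoid arrays did not overlap, with a difference of 0.20 (-0.13 to 0.53).

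In the same ranking, the 4 strongest shared decreases differed in how closely they matched. DDC, the decarboxylase of dopamine and serotonin synthesis, was at 2.97 to 3.19 in the control, at -3.27, -3.43 and -3.25 with ATRA and at -3.07, -3.39 and -3.15 with 9cRA. Both groups overlapped, and the difference was -0.11 (-0.32 to 0.10). FABP4, the fatty acid carrier of fat cells, was at 1.30, 1.36 and 1.32 with ATRA and 1.43, 1.61 and 1.84 with 9cRA, against 6.12 to 6.45 in the control. Its retinoid arrays did not overlap, yet the difference of -0.30 (-0.53 to -0.07) was not called (adjusted p = 0.355, limma). The matrix gene FNDC1 (0.06, -0.24 to 0.37) and the joint lubricant PRG4 (-0.30, -1.24 to 0.65) completed the set, and PRG4 was the least precise.

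**Figure D2:**
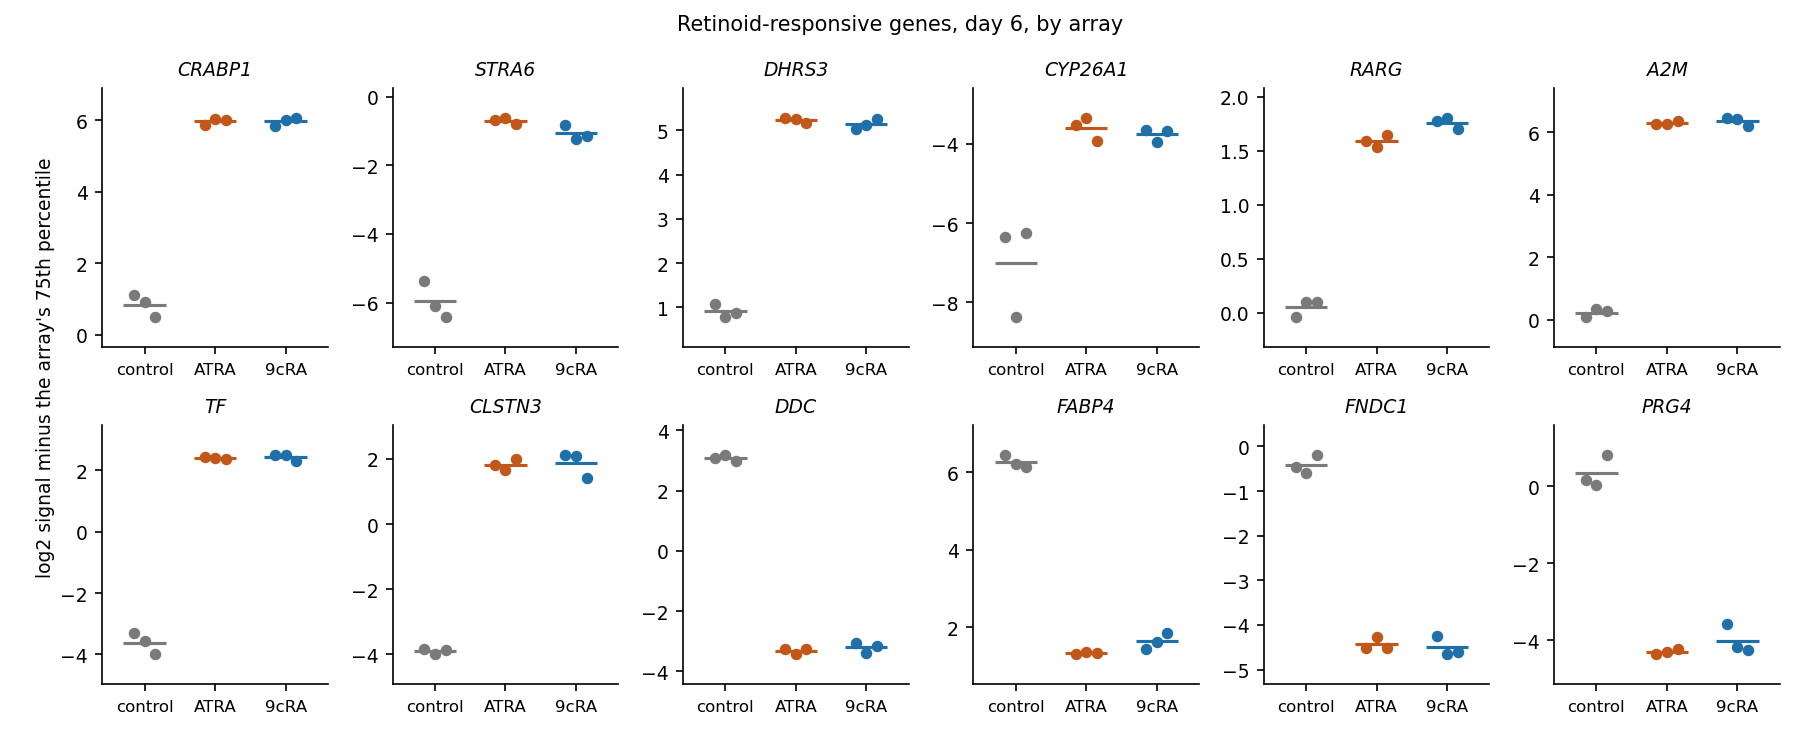
Log2 signal relative to the array's 75th percentile for 12 genes that respond to retinoids, by group; points are arrays (3 per group) and bars are group means. In each panel the ATRA and 9cRA points lie together relative to their distance from the control, as for CRABP1, where the difference between isomers was 0.00.

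Responders as a class were examined through the mean of both retinoid groups against the control, a contrast that is separate from the difference between isomers when arrays vary independently. This set was defined after results were seen. It holds 948 genes that were called at 2-fold or more and well above background on all day 6 arrays, 459 higher and 489 lower than the control. Between the isomers 1 of the 948 was called, EGR1, and 789 intervals (83.2%) lay between -0.5 and 0.5. Small differences followed the direction of the response: the median was 0.03 among the 459 higher genes and -0.06 among the 489 lower ones, against -0.01 for all genes. The ATRA arrays lay wholly above the 9cRA arrays for 80 of the higher genes (17.4%) and wholly below for 20 (4.36%), and for the lower genes these counts were 23 (4.70%) and 103 (21.1%). With the slide as a block the medians were 0.05 and -0.06, against 0.01 for all genes, while with array weights that of the higher genes was 0.00. Without 9cRA array 3 it was 0.01, and without ATRA array 3 it was also 0.01.

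Of the 21 called genes, HMGCS1, NSDHL, INSIG1, SCD, FADS2, EGR1 and IER2 belong to the lists of cholesterol synthesis, fatty acid synthesis and immediate early genes described next. Most genes of cholesterol synthesis and uptake had lower levels with ATRA than with 9cRA: of 27 tested, 3 were called, all higher with 9cRA (background 0.0567%), and 18 had an unadjusted p under 0.05 in that direction (background 4.87%). The arrays were wholly separate, with 9cRA higher, for 19 of the 27 (background 8.18%). The median difference was -0.27, against -0.01 for all genes, and 25 of 27 differences were below 0. Against the control the list's median was -0.43 with ATRA and -0.16 with 9cRA. There, 20 members were called lower with ATRA (background 22.4%) and 12 with 9cRA (21.8%), and 3 higher with each (23.7% and 24.8%). By array, the list's median relative to the control mean was -0.40, -0.46 and -0.46 with ATRA and -0.16, -0.18 and -0.15 with 9cRA, which do not overlap.

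Most of these genes encode consecutive enzymes from acetyl-CoA to cholesterol and are known to be transcribed together under the sterol-sensing factor SREBP2. HMGCS1, which makes HMG-CoA at the start of the path, was at 0.96 to 1.14 in the control, at 0.08, 0.06 and 0.09 with ATRA and at 0.50, 0.51 and 0.50 with 9cRA. Its groups were separate and its level was 1.34-fold higher with 9cRA (difference -0.43 ± 0.06 SE, adjusted p = 0.038 by limma, 0.13 with the slide as a block). Its probe lies at chromosome 20, 31475481 to 31475540 on UMD3.1, and all 3 probes measured gave differences from -0.43 to -0.36. The differences of IDI1 (-0.39), FDPS (-0.32), FDFT1 (-0.29), LSS (-0.34), CYP51A1 (-0.32) and MSMO1 (-0.37) along the same path, are given here although the rule for named genes did not take them.

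Among the enzymes that form and trim the sterol ring, NSDHL, which removes methyl groups from the sterol ring, was at -1.92, -1.87 and -1.95 with ATRA and -1.54, -1.59 and -1.58 with 9cRA, and was 1.27-fold higher with 9cRA (difference -0.34 ± 0.05 SE, adjusted p = 0.045 by limma, 0.081 with the slide as a block). Both of its probes gave -0.34 and -0.35. DHCR7, which catalyses the last reduction to cholesterol, was at 2.37, 2.30 and 2.33 with ATRA and 2.97, 2.83 and 2.63 with 9cRA. It had the largest difference below 0 in the list (-0.48, interval -0.65 to -0.31) without reaching the threshold (adjusted p = 0.057, limma). SQLE, the squalene epoxidase, gave -0.41 with the same adjusted p of 0.057 and was also picked after its values were seen.

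Regulators of the path and the reductase TM7SF2 were uneven. INSIG1, which holds the SREBP complex in the endoplasmic reticulum and is itself an SREBP target, was at 0.71 to 0.81 in the control, at 0.37, 0.30 and 0.31 with ATRA and at 0.86, 0.66 and 0.73 with 9cRA. It was thus below the control with ATRA (-0.43) and close to it with 9cRA (-0.01), a 1.34-fold difference (-0.42 ± 0.06 SE, adjusted p = 0.037 by limma, 0.095 with the slide as a block). Its other probe was above background on only 2 ATRA arrays and 1 9cRA array and gave 0.13 (adjusted p = 0.86). SREBF2, which encodes SREBP2, differed by -0.05 (-0.24 to 0.14). TM7SF2, which acts late in the path as a sterol reductase, had the opposite sign (0.71, interval 0.38 to 1.04, adjusted p = 0.13), at -3.57, -3.35 and -3.40 with ATRA and -4.01, -4.09 and -4.36 with 9cRA. These members were also singled out after their values were seen, other than INSIG1.

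Called genes of fatty acid desaturation lay in the same direction. Of 20 tested genes of fatty acid synthesis and desaturation, 2 were called, both higher with 9cRA (background 0.0567%), and 7 had an unadjusted p under 0.05 in that direction (background 4.87%). Separate arrays with 9cRA higher were found for 10 (background 8.18%), and the median was -0.10. SCD, the desaturase that makes oleic from stearic acid, was at 4.23, 4.30 and 4.29 in the control, at 4.52, 4.54 and 4.40 with ATRA and at 5.09, 4.94 and 4.96 with 9cRA. The 3 groups were separate, and SCD was 1.42-fold higher with 9cRA than with ATRA (-0.51 ± 0.05 SE, adjusted p = 0.012, limma), and -0.59 with the slide as a block (adjusted p = 0.020). All 7 of its probes measured on the 6 arrays gave differences between -0.56 and -0.29; the reported one lies at chromosome 26, 21138077 to 21138136 on UMD3.1.

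FADS2, the desaturase that opens polyunsaturated fatty acid synthesis, was at 2.53, 2.56 and 2.50 with ATRA and 2.96, 2.88 and 2.98 with 9cRA, with the control between 2.71 and 2.88. The retinoid groups were separate, with a 1.33-fold difference (-0.41 ± 0.06 SE, adjusted p = 0.038 by limma, 0.095 with the slide as a block). Its neighbour in the pathway FADS1 had a difference of -0.32 (adjusted p = 0.14), but its probes gave -0.32 and 0.04. ELOVL6, which lengthens palmitic acid, had -0.20 (adjusted p = 0.34), and its 5 probes ran from -0.28 to 0.33. ACACA, which commits acetyl-CoA to fatty acid synthesis, had 0.03 (-0.25 to 0.32), and was added after its value was seen.

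LXR and PPAR target genes were listed because RXR is the partner of both receptors. Of 13 tested LXR targets, SCD was the only called member (background 0.0567% with 9cRA higher), 6 had an unadjusted p under 0.05 in that direction (background 4.87%), and the median was -0.15. SREBF1, which encodes SREBP1, was at -0.68, -0.61 and -0.64 with ATRA and -0.29, -0.50 and -0.52 with 9cRA, separate but not called (-0.21, adjusted p = 0.38, limma). LPCAT3, which remodels phospholipids, gave -0.22 (adjusted p = 0.18), with its 3 probes between -0.23 and -0.15. The cholesterol exporters ABCA1 (-0.02, interval -0.30 to 0.26) and ABCG1 (-0.09, -0.44 to 0.25), classical LXR targets named after their values were seen, had differences near 0. The list's median was -0.09 with the slide as a block, -0.09 without the filter on dim genes and -0.05 after normexp background correction. Of 29 tested PPAR targets none was called by limma. An unadjusted p under 0.05 was found for 1 higher with ATRA (background 5.61%) and 7 higher with 9cRA (background 4.87%). The PPAR list's median was -0.07, which was -0.13 without 9cRA array 1, -0.04 without 9cRA array 2 and -0.02 without 9cRA array 3.

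Immediate early genes, transcribed within minutes of growth factor, serum or stress signals, formed the other group. Of 20 tested, 2 were called, both higher with 9cRA (background 0.0567%), 11 had an unadjusted p under 0.05 in that direction (background 4.87%), 12 had separate arrays with 9cRA higher (background 8.18%), and the median was -0.15. By array, the list's median relative to the control was -0.17, -0.29 and -0.34 with ATRA and 0.19, 0.08 and 0.01 with 9cRA, again without overlap. Against the control, 7 members were called higher and 10 lower with ATRA (backgrounds 23.7% and 22.4%), and 9 higher and 8 lower with 9cRA (24.8% and 21.8%). The list thus did not move one way with either retinoid.

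EGR1, a zinc finger transcription factor, had the largest called difference among genes with a symbol measured on all 6 arrays. It was at 1.69, 1.70 and 1.87 in the control, at 3.11, 3.06 and 2.98 with ATRA and at 4.27, 4.01 and 3.995 with 9cRA. All 3 groups were separate, and EGR1 was 2.06-fold higher with 9cRA than with ATRA (-1.04 ± 0.10 SE, interval -1.26 to -0.83, adjusted p = 0.012, limma). All 3 of its probes gave differences between -1.04 and -0.92, and with the slide as a block the difference was -1.11 (adjusted p = 0.031). The reported probe lies at chromosome 7, 51442425 to 51442484 on UMD3.1.

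IER2, another early response gene, was at 2.36, 2.27 and 2.33 with ATRA and 2.63, 2.83 and 2.87 with 9cRA, against 1.80 to 1.91 in the control. It was 1.37-fold higher with 9cRA (-0.46 ± 0.07 SE, adjusted p = 0.042 by limma, 0.14 with the slide as a block), with separate groups. FOS, a subunit of the AP-1 factor, was at 0.93 to 1.25 in the control, at 1.04, 0.90 and 0.84 with ATRA and at 1.78, 1.58 and 1.73 with 9cRA. Its ATRA arrays lay among or below the controls and its 9cRA arrays above both, but the difference of -0.77 was not called (adjusted p = 0.079, limma), although its 3 probes ranged only from -0.77 to -0.59. ZFP36, which speeds the decay of inflammatory mRNAs, had -0.46 (adjusted p = 0.092). EGR2 (0.13) and FOSL1 (0.12) were the only 2 members above 0 and are named for that reason, after their values were seen.

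**Figure D3:**
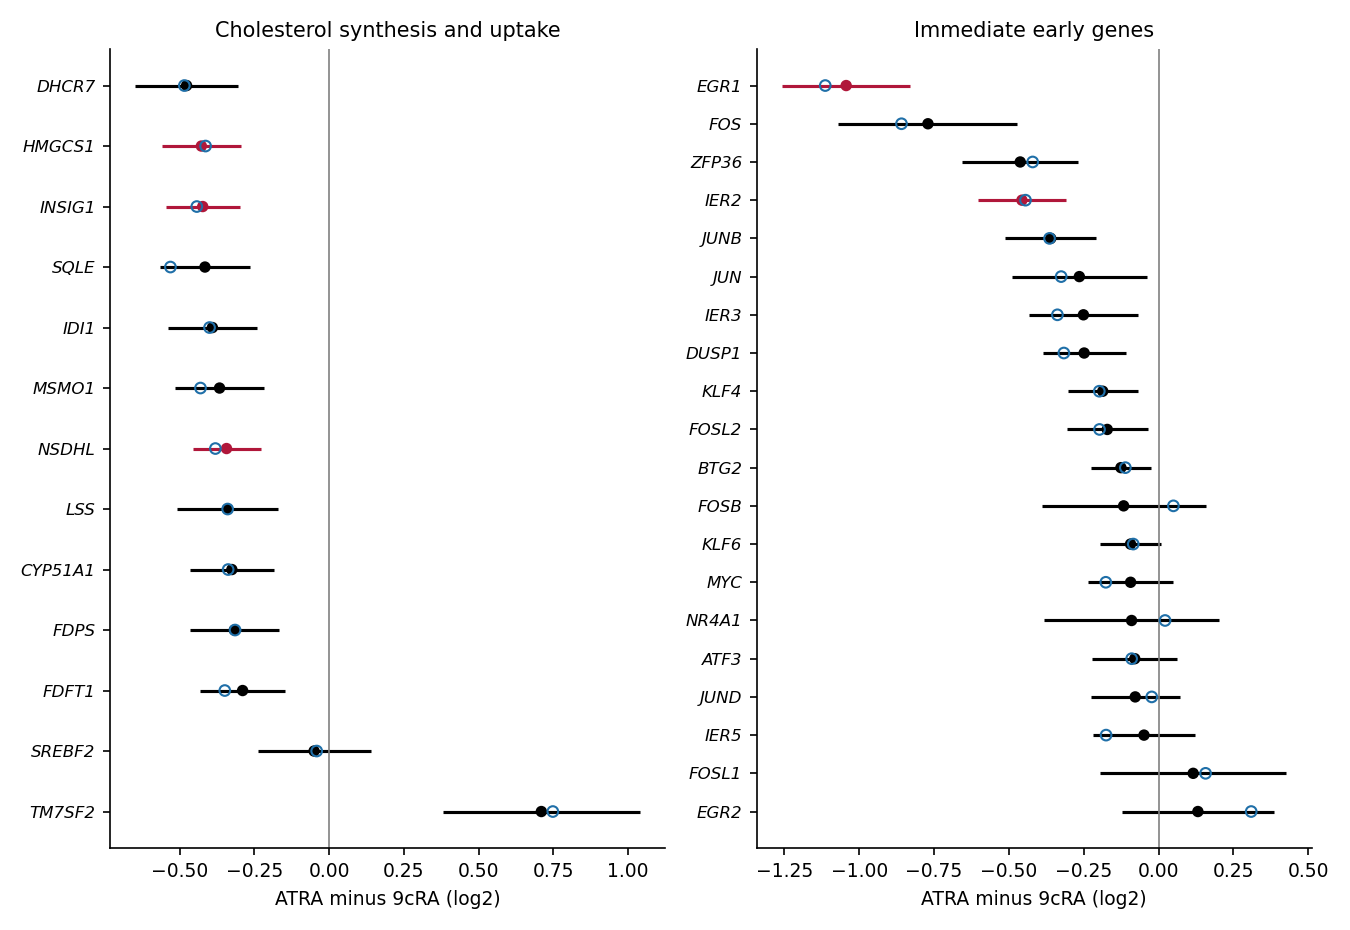
Difference ATRA minus 9cRA (log2) with its 95% interval for the genes of cholesterol synthesis and its regulation named in the text (left) and each tested immediate early gene (20, right); filled red points were called, filled black points were not, and open circles are the estimate with the slide as a block. In the left panel every point but that of TM7SF2 (0.71) lies below 0, and in the right panel 18 of 20 do.

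The called genes that were higher with ATRA belonged to none of the 31 lists. LUC7L3, a splicing factor of the U1 particle, was at 3.07 to 3.16 in the control, at 3.32, 3.51 and 3.40 with ATRA and at 2.93, 2.89 and 3.07 with 9cRA. It was 1.37-fold higher with ATRA (0.45 ± 0.06 SE, adjusted p = 0.038, limma), and all 5 of its probes gave differences from 0.33 to 0.45. RNPC3, a protein of the minor spliceosome, was 1.46-fold higher with ATRA (0.55 ± 0.08 SE, adjusted p = 0.042), with its probes at 0.41 and 0.55. GUCY1B1, a subunit of the nitric oxide receptor guanylate cyclase, was at 1.04, 1.03 and 0.96 with ATRA and 0.74, 0.70 and 0.71 with 9cRA, both above the control at 0.22 to 0.28. It differed by 0.30 ± 0.04 (SE, adjusted p = 0.038, limma), and its 3 probes agreed in sign (0.30 to 0.39). KRTCAP3 (1.62-fold, adjusted p = 0.031, limma) and the histone gene H2AC25 (1.64-fold, adjusted p = 0.042) completed the 5 called genes with a symbol. The other 6 were transcripts without one, such as TC400636 (1.04, adjusted p = 0.031, limma). Against the control, H2AC25 differed by -0.11 with ATRA and -0.83 with 9cRA, and TC400636 by -0.03 and -1.07. KRTCAP3 differed from the control by 0.45 and -0.25, and RNPC3 by 0.45 and -0.09. With the slide as a block none of the 5 with a symbol was called (adjusted p from 0.081 for H2AC25 to 0.14 for GUCY1B1, limma).

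PGR, the progesterone receptor gene, was well above background on all 9cRA arrays (-5.19, -5.39 and -5.04) and on no ATRA array. Only a bound can be given, at least 1.54-fold higher with 9cRA, at signals close to the detection limit. The gene entered the test through the 9cRA arrays alone, its call (adjusted p = 0.042, limma) sets them against signals at background, and with the slide as a block the adjusted p was 0.14. FCGR2B was also called but was not well above background on any of the 6 arrays, so no fold is given. The other bounds were named among genes with a symbol, and these genes were uncalled. TAS2R38 (at least 1.45-fold) and CDH22 (at least 1.31-fold) were detected with 9cRA only. BNIPL (at least 1.43-fold), KIAA1755 (at least 1.22-fold) and PARPBP (at least 1.15-fold) were detected with ATRA only. The largest bound with ATRA higher was that of TC396290, a transcript without a symbol (at least 1.52-fold, also uncalled).

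**Figure D4:**
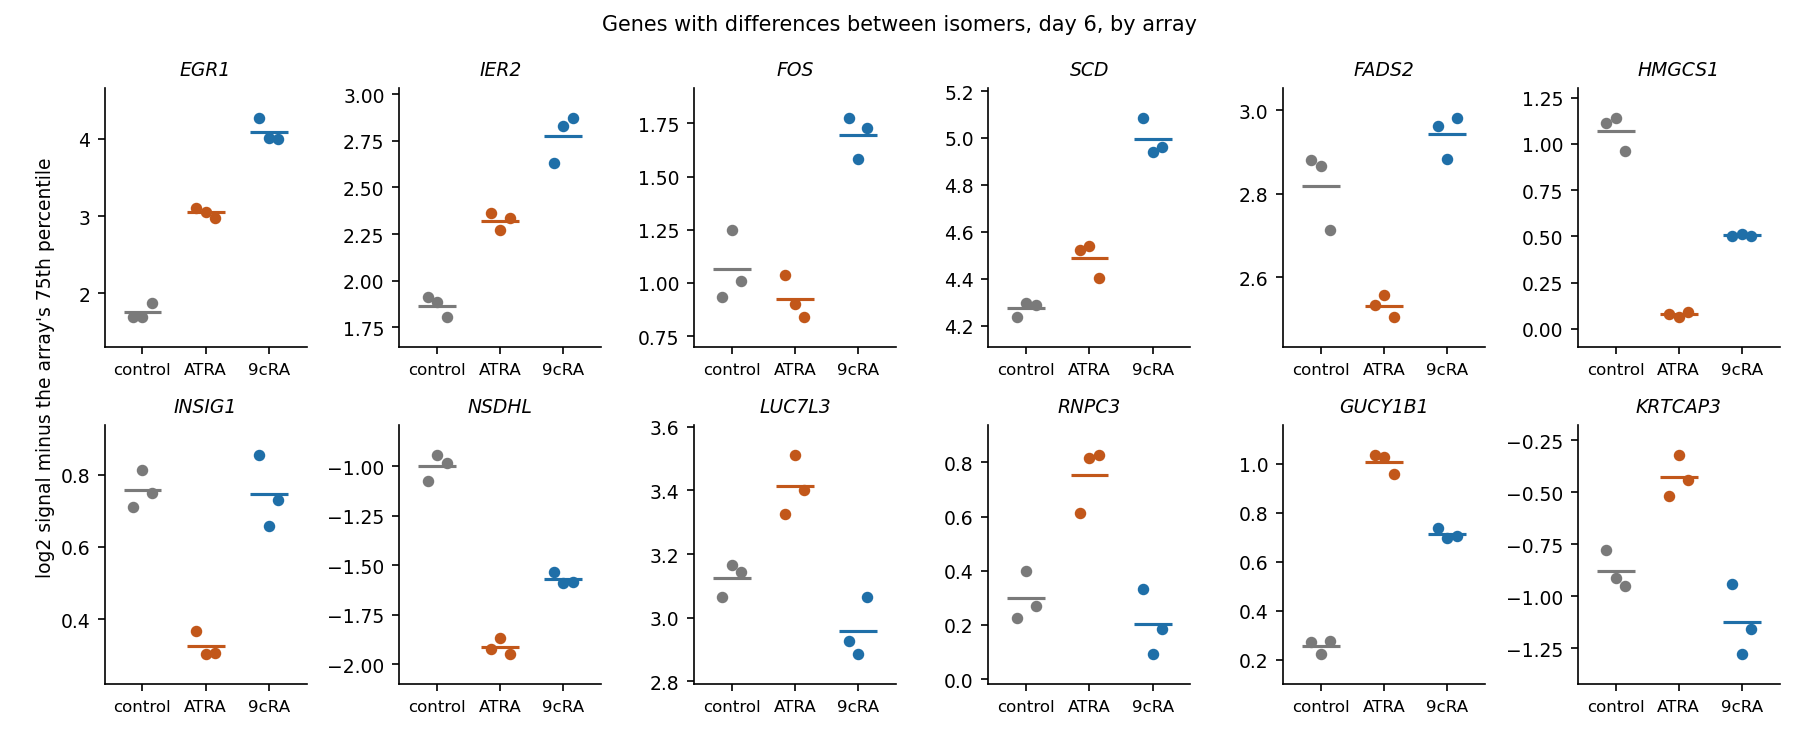
Log2 signal relative to the array's 75th percentile for 12 genes with differences between the isomers, by group; points are arrays (3 per group) and bars are group means. ATRA and 9cRA arrays are separate in every panel; EGR1, SCD and HMGCS1 are higher with 9cRA and LUC7L3 and GUCY1B1 higher with ATRA. FOS was not called.

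These calls were close to the threshold and depended on single arrays. Leaving out ATRA array 1 gave 10 calls and ATRA array 2 gave 1, while without ATRA array 3 or 9cRA array 2 limma called 0 genes (unadjusted p under 0.05: 1791 and 1100). EGR1 was called in 14 and SCD in 13 of 18 alternatives, with adjusted p of 0.052 to 0.075 without ATRA array 2, ATRA array 3 or 9cRA array 2, and of 0.125 and 0.201 from the 6 retinoid arrays alone. With the slide as a block 35 genes were called (30 higher with ATRA, 5 with 9cRA), 4 of them among the 21, and all 21 kept their sign. The arrays of all 21 were separate between the isomers, so their sign under that block could not change and lends them no weight. IER2 was called in 7, INSIG1 in 7, HMGCS1 and FADS2 in 6, NSDHL in 5 and LUC7L3 in 7 of 18.

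Other groups of genes that the retinoids changed had no call between the isomers. Of 46 tested interferon-stimulated genes, 29 were called higher than the control with either retinoid, with medians of 0.46 and 0.47, and the isomers differed by a median of 0.05 with none called. The 26 complement and acute phase genes had medians of 1.21 with ATRA and 1.22 with 9cRA against the control, and 24 of their intervals between isomers lay within 2-fold. Of 20 smooth muscle contractile genes, 16 were called lower than the control with each retinoid, with medians of -1.32 and -1.19. Of 44 cell cycle and DNA replication genes, 27 were called lower with ATRA and 28 with 9cRA, with medians of -0.45 and -0.46. Over all genes tested, 23.7% were called higher and 22.4% lower than the control with ATRA, and 24.8% and 21.8% with 9cRA. In these 4 lists no gene was called between the isomers by limma, and unadjusted p-values under 0.05 numbered 4, 1, 3 and 8 (background 10.5%). The 25 adipogenic transcription factors (median -0.05) also had no call, with 1 unadjusted p under 0.05 higher with ATRA (background 5.61%) and 2 higher with 9cRA (background 4.87%). Of 30 adipocyte lipid storage and secreted genes (median -0.03) none was called by limma, and 4 had an unadjusted p under 0.05, all with 9cRA higher (background 4.87%): FABP4, the fatty acid transporter CD36 (-0.52) and the lipid droplet proteins CIDEC (-0.27) and PLIN2 (-0.18). Of 32 glucocorticoid-induced genes, listed because dexamethasone is in the medium, none was called by limma and 1 had an unadjusted p under 0.05 each way (backgrounds 5.61% and 4.87%). Their median against the control was -0.40 with ATRA and -0.23 with 9cRA, and by array -0.48 to -0.38 and -0.27 to -0.21, which do not overlap, while the median of the members' differences was -0.02.

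Collagen genes, which encode the main fibres and sheets of the matrix, were uneven. Of 22 tested, 7 had an unadjusted p under 0.05, all with ATRA higher (background 5.61%), 6 had separate arrays in that direction (background 8.22%), none was called by limma, and the median was 0.03, or 0.13 with the slide as a block. COL18A1, a basement membrane collagen, was at 6.14, 6.08 and 6.19 with ATRA and 6.01, 5.81 and 5.76 with 9cRA, both above the control at 4.46 to 4.55. The groups were separate, with a difference of 0.27 (adjusted p = 0.21, limma), and its 6 probes ran from 0.01 to 0.34. COL16A1 was at 3.70, 3.81 and 3.69 with ATRA and 3.63, 3.45 and 3.44 with 9cRA, below the control at 4.44 to 4.57, with both probes at 0.23 (adjusted p = 0.26).

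**Figure D5:**
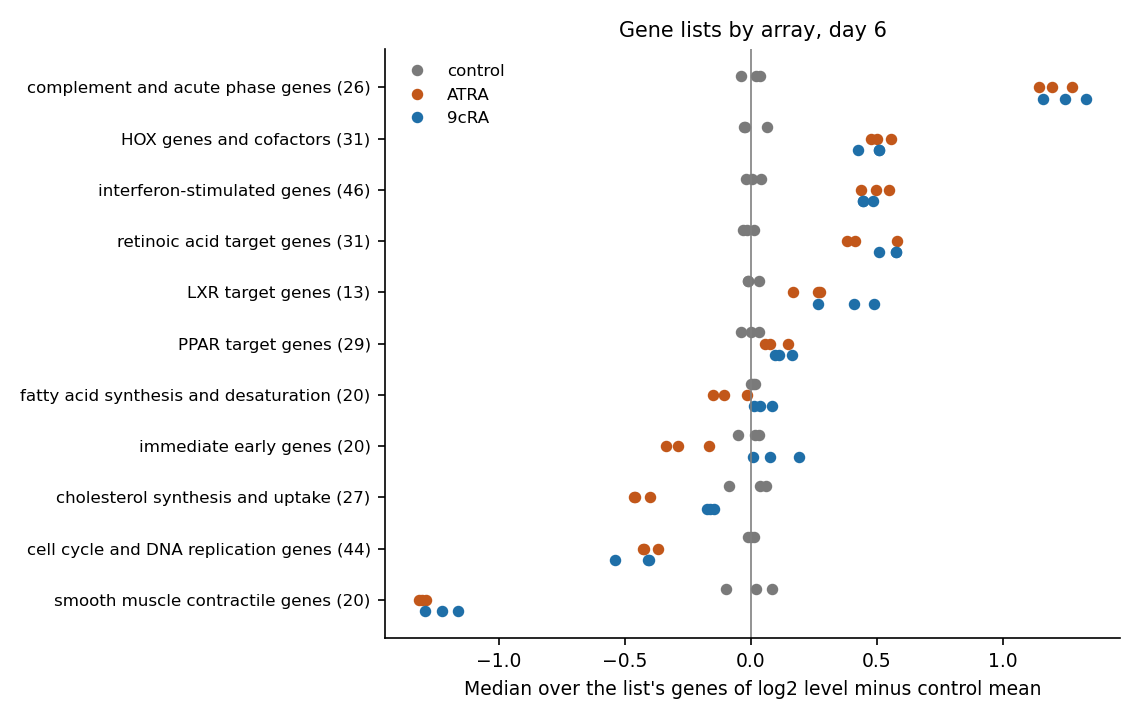
Median over each list's tested genes (number in brackets) of the log2 level minus the mean of the control arrays, 1 point per array for control, ATRA and 9cRA. Of the lists drawn, ATRA and 9cRA arrays are apart for cholesterol synthesis (-0.46 to -0.40 against -0.18 to -0.15), immediate early genes (-0.34 to -0.17 against 0.01 to 0.19) and fatty acid synthesis (-0.15 to -0.01 against 0.01 to 0.08). Lists not drawn were also apart: glucocorticoid-induced genes, the unfolded protein and amino acid stress response (-0.24 to -0.13 against -0.32 to -0.26) and the IGF axis (0.32 to 0.48 against 0.49 to 0.55).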

How the data were processed

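RNA of 4 groups was hybridised to 12 single-colour Agilent bovine arrays, 3 per group. The files hold spot intensity that the authors deposited as Feature Extraction 10.7.3.1 output, background-subtracted and detrended per the file headers, with no scaling between arrays. A further deposited table gives 1 log2 value per probe and group. Compared with the arrays, it held group means of log2 signal less the 75th percentile, minus the median of the 12 arrays (median gaps of about 0.003, column medians 0.01 for ATRA and 0.02 for 9cRA), and it served as an alternative. How it was made is not given in the sources used here.

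Control spots (1417 of 45220) and outlier spots (39 on the 6 retinoid arrays) were left out. Processed signal was taken to log2 less each array's 75th percentile, repeated spots were averaged, and each gene was represented by its brightest probe. Of 43653 probes, 28562 were named through an accession in RefSeq's table for ARS-UCD2.0 (names only), 5113 and 138 by current and older symbols, and 9840 kept the file's name. Coordinates are the files', on UMD3.1. A gene was tested where every array of some group had it well above background. Group means over all 12 arrays were fitted with limma 3.58.1 in R 4.3.3 (lmFit, eBayes), and the fit was tested on simulated data. The number of arrays limits the precision.

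For a gene at background in one group, the fold is a bound: the mean of the measured group against, on each array of the other, its own signal or the dimmest signal counted as detected, whichever was higher. Named genes are the 10 largest called differences each way with a symbol, measured on all 6 arrays and not overlapping. The 3 largest bounds each way were taken among genes with a symbol. Also named are the retinoid receptors and CYP26 enzymes, and up to 4 members with the smallest p of each other list. The 4 largest shared changes each way against the control were taken among genes with a symbol measured on all day 6 arrays. Some others were named after their values were seen, and some members are not reported here. Members and lists were chosen with earlier results of these data known. Alternatives were slide as fixed or random block, other scalings, normexp, other filters, array weights, fewer arrays, single probes and the deposited table.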

Additional observations from a re-analysis of the deposited data

How the results depend on the processing

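The number of called genes moved most. Against 21, limma called 35 with the slide as a fixed block, 5 with it as a random block, 32 after quantile normalization, 34 after normexp, 4 without a filter on dim genes, 2 from the 6 retinoid arrays alone, 2369 with array weights and 47 probes when each probe was tested by itself; leaving out a retinoid array gave 0 to 22. Array weights gave 9cRA array 2 a weight of 4.81 and ATRA array 2 one of 2.46. Calls of 2-fold or more, 4 as reported, numbered 22 with the fixed block, 1 with the random block, 1 after normexp, 1 without the filter, 2 with genes above background on all retinoid arrays, 2 from the 6 arrays alone, 62 with weights and 0 to 5 without a retinoid array. The cause of these shifts was not tested. The share of tested genes with an interval within 2-fold, 94.6% as reported, ran from 79.0% without the filter to 99.5% after normexp. The median of the cholesterol list, -0.27, was -0.30 with the fixed block, -0.29 with the random block, -0.26 after quantile normalization, -0.25 after cyclic loess, -0.26 after normexp and -0.30 to -0.25 without a retinoid array. That of fatty acid synthesis, -0.10, was -0.14 with the fixed block, -0.13 with weights and -0.13 to -0.10 without a retinoid array, and that of immediate early genes ran from -0.19 to -0.13; all 3 were below 0 in 18 of 18 alternatives. For the 12 called genes with a symbol measured on all 6 arrays, 94 of 216 refits kept the call and 0 changed sign. Their arrays were separate between the isomers, so leaving out an array or a fixed slide block could not change the sign. The dim second probe of INSIG1 gave 0.13. In the authors' deposited table the differences were -1.04 for EGR1, -0.51 for SCD and -0.43 for HMGCS1. Leaving out day 6 control array 1, chosen after seeing the data because 64.8% of its spots were above background, gave 27 calls. The labels give each group as 1 sample, and only the array files carry numbers. Deviations of same-numbered ATRA and 9cRA arrays correlated at -0.03, -0.09 and -0.01 over genes, so the arrays were not treated as paired; with the array number as a replicate block, added after seeing the data, 2 genes were called, both at 2-fold or more, EGR1 was the only 1 of the 21 among them, and SCD had an adjusted p of 0.086. Dim genes such as CYP26A1 and PGR are limited by signal over background.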

Other observations

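Transcripts of the mitochondrial genome were examined after their values were seen. Of its 13 protein genes, 10 encoded on the forward strand were tested, among them CYTB, COX2, ND1 and ATP6, which form subunits of the respiratory chain and of ATP synthase. All 10 had an unadjusted p under 0.05 with ATRA higher (background 5.61%), 9 had separate arrays (background 8.22%), and none was called by limma (adjusted p from 0.057 to 0.36). The differences ran from 0.20 for COX3 to 0.46 for CYTB, and from 0.33 to 0.61 with the slide as a block. These are values of each gene's brightest probe: over all probes, COX3 ran from 0.20 to 0.43 and CYTB from 0.46 to 0.64. By array, the median of the 10 genes relative to the control was 1.18, 1.15 and 1.25 with ATRA and 0.73, 0.81 and 0.76 with 9cRA, so both retinoids were above the control and the groups did not overlap. With each probe tested by itself, 1 of 36 forward-strand probes was called, a CYTB probe with ATRA higher (0.64, adjusted p = 0.039, limma). ND6, the protein gene of the opposite strand, had a difference of -0.29 (adjusted p = 0.25). Nuclear genes of oxidative phosphorylation did not show this: of 55 tested, none was called by limma, none had an unadjusted p under 0.05, all 55 intervals lay between -0.5 and 0.5, and the median was -0.04.

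AB098840, a transcript without a symbol whose probe lies on the mitochondrial genome, was called in the other direction, with 9cRA higher. It was at 3.26, 3.45 and 3.46 with ATRA, at 4.10, 4.32 and 4.41 with 9cRA and at 2.81 to 3.01 in the control, a difference of -0.89 (adjusted p = 0.012 by limma, and 0.057 with the slide as a block, where it was not called).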
